A study of Mus musculus with 12 samples.

Results

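The genomic landscapes of Msx1 and Msx2, a pair of limb bud homeobox genes, were examined for β-catenin binding and histone H3K27 acetylation (H3K27ac). The members were every ChIP-seq peak summit within 200 kb of either gene body, in each of the 12 peak lists, which gave 237 of the 268431 listed summits. The lists came from forelimb buds of wild-type Swiss Albino mouse embryos, dissected 6 h after their mothers were injected at E10.5. The mothers received Wnt-C59 (C59, 10 µg per g body weight) or 10% DMSO in PBS (DMSO, the wild-type control). The authors diluted C59 in PBS with methylcellulose, Tween-20 and DMSO, so that the injected solutions differed in more than C59. Each antibody and treatment was represented by 2 biological replicates, each of 20 pooled forelimb buds, and by a consensus list made from both. Pooled whole limb buds hold several cell types, so that fewer bound cells and less binding per cell cannot be told apart.

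MSX1 and MSX2 are homeodomain transcription factors that act mostly as repressors, and their genes are widely used as readouts of BMP signaling in limb bud mesenchyme and ectoderm. C59 inhibits porcupine, the enzyme that lipid-modifies WNT ligands for secretion. Without WNT ligands β-catenin is degraded, whereas in their presence it enters the nucleus and is recruited to cis-regulatory modules (CRMs) by TCF/LEF proteins, which recognise a short DNA core. H3K27ac marks active promoters and enhancers. The comparison addresses whether β-catenin occupied the Msx landscapes and whether occupancy and acetylation differed after WNT ligand secretion was blocked.

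On the mouse build GRCm38 (mm10), Msx1 (ENSMUSG00000048450) lies on the minus strand at chr5:37820485-37824583 and Msx2 (ENSMUSG00000021469) on the minus strand at chr13:53466884-53473074. The strongest β-catenin summits are shown first, the 3 of highest fold at Msx1 and the 5 of highest fold at Msx2, because the results below turn on them. The summits at 77.4 kb and 7.23 kb from Msx1 are included because H3K27ac was called there in both libraries of only 1 treatment. Each run spans 201 bases centred on the wild-type consensus summit, read 5′ to 3′ on the plus strand of the GRCm38 assembly from RefSeq. Capitals mark the TCF/LEF core ATCAAAG or TTCAAAG on either strand.
Msx1, 93.5 kb upstream (chr5:37918030-37918230): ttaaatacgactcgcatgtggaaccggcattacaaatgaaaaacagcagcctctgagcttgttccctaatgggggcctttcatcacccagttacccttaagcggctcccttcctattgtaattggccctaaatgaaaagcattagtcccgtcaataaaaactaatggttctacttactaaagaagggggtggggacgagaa
Msx1, 71.1 kb upstream (chr5:37895578-37895778): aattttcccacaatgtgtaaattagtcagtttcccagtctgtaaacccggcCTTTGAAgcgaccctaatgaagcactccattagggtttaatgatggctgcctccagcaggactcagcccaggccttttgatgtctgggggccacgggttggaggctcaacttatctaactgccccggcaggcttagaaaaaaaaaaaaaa
Msx1, 2.35 kb upstream (chr5:37826830-37827030): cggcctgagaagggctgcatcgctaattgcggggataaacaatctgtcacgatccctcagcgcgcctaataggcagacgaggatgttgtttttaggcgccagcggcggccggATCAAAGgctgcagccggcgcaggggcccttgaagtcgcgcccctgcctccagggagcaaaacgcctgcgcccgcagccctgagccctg
Msx1, 77.4 kb upstream (chr5:37901900-37902100): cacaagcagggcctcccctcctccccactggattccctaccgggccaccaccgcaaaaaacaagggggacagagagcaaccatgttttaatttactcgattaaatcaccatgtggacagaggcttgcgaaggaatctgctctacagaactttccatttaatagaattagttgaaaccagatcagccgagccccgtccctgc
Msx1, 7.23 kb downstream (chr5:37817255-37817455): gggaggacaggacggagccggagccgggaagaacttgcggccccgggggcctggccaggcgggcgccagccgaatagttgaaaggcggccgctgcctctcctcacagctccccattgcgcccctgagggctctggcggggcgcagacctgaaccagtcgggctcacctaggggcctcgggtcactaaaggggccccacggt

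The 71.1 kb window lies in an intron of the lincRNA Gm20052, and the other Msx1 windows are intergenic. Counted along the plus strand, a core starts 12 bases after the summit base in the 2.35 kb window and 49 bases before it at 71.1 kb. The window with the highest fold enrichment of the locus, at 93.5 kb, holds no core. The Msx2 windows are all intergenic.
Msx2, 103 kb upstream (chr13:53576332-53576532): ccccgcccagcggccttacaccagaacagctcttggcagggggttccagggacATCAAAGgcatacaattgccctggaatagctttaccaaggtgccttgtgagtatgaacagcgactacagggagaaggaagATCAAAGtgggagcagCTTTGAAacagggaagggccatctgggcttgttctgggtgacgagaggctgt
Msx2, 197 kb upstream (chr13:53670375-53670575): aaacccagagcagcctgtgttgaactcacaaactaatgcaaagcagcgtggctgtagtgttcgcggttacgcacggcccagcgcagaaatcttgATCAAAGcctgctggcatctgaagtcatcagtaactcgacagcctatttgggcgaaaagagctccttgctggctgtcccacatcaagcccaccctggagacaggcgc
Msx2, 152 kb downstream (chr13:53320971-53321171): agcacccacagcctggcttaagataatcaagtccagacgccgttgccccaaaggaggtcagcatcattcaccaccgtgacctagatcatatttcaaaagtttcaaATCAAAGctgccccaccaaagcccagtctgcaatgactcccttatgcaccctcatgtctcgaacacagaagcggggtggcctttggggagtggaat
Msx2, 3.01 kb upstream (chr13:53475987-53476187): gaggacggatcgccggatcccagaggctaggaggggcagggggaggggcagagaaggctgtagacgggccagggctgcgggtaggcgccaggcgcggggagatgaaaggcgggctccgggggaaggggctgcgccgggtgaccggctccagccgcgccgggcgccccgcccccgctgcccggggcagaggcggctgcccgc
Msx2, 163 kb downstream (chr13:53309803-53310003): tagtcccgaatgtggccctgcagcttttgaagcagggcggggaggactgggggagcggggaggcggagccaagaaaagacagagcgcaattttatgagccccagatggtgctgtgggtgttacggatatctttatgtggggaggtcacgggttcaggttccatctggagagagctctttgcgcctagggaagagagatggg

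The Msx2 window at 103 kb upstream holds 3 cores, starting at −47, 33 and 49 bases from the summit. Those at 197 kb upstream and 152 kb downstream hold 1 each, at −6 and 5 bases. No core is found in the windows at 3.01 kb upstream and 163 kb downstream, which says only that these letters are not present there.

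Depth was read from the lists themselves, since the fold enrichment and p of a summit fix both the whole fragments covering it and the coverage expected there. The lowest expected coverage in a library, its genome-wide background, was 1.57 and 1.81 fragments for β-catenin in DMSO controls and 1.83 and 1.82 after C59, and 2.69 and 2.88 against 3.17 and 2.98 for H3K27ac. The β-catenin lists held 20203 and 25836 summits in DMSO controls but 330 and 358 after C59, and the lowest −log10 p listed was correspondingly higher after C59 (5.69 and 5.72, against 3.89 and 3.79). The tissue labels were checked on promoter H3K27ac, meaning a summit under 1 kb from an annotated start site. All 4 limb mesenchyme markers (Prrx1, Prrx2, Twist1 and Lmx1b) and forelimb Tbx5 carried it in all 4 libraries. Of 3 hindlimb markers, Tbx4 carried it in all 4 libraries, Isl1 in 3 and Pitx1 in 0. It was listed in 0 libraries for 3 of 4 ectoderm and ridge markers (Sp8 had it in 1), 2 of 3 muscle precursor markers (Pax3 had it in 2), both erythroid and all 3 neuronal markers, and in 3 and 2 libraries for the endothelial markers Cdh5 and Pecam1.

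β-catenin was bound at many sites around both genes in wild-type controls. Near Msx1, 18 and 19 summits were listed in the 2 libraries and 17 in the consensus list. Near Msx2 there were 17 and 18 summits in the 2 libraries and 16 in the consensus list. Among 21938 protein-coding genes, the median number of β-catenin summits within 200 kb was 3.50 (mean of both libraries), and 0.985% of genes had at least as many as Msx1 and 1.20% at least as many as Msx2, both genes included. Windows include the gene body and so are longer for longer genes, with 404 kb at Msx1 and 406 kb at Msx2. Summit numbers compared between genes, here and below, were not scaled to window length. The 2 landscapes were laid out differently. Of the Msx1 consensus summits, 15 lay upstream of the start site and 2 downstream, whereas those of Msx2 fell 8 upstream and 8 downstream.

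**Figure D1:**
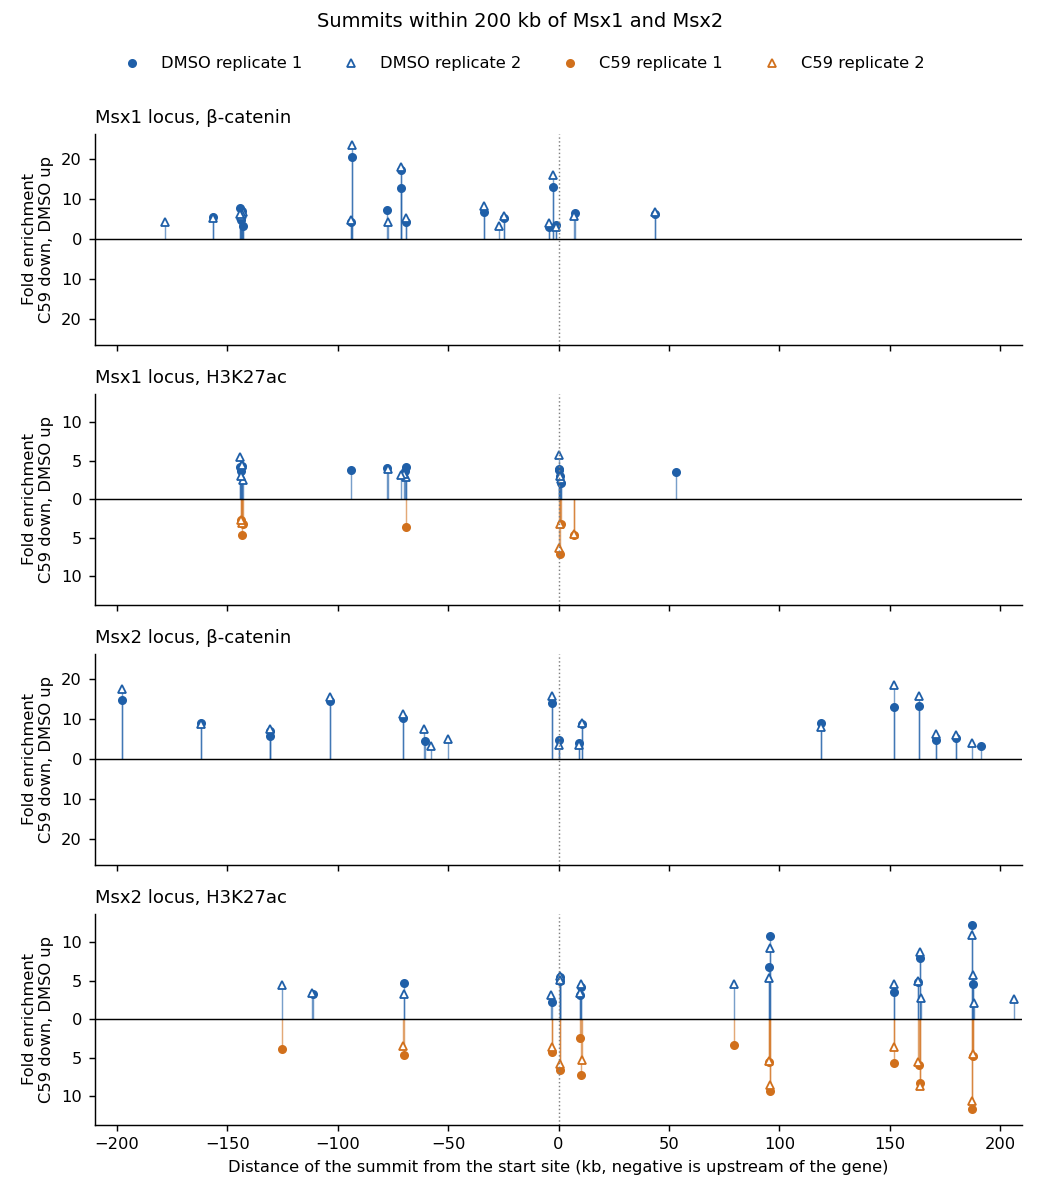
Fold enrichment of every summit within 200 kb of Msx1 and Msx2 in the 8 replicate libraries, plotted against the distance from the start site in kb (negative is upstream). DMSO (wild-type control) points upwards and C59 downwards, with filled circles for replicate 1 and open triangles for replicate 2, and the β-catenin panels hold no C59 summit while the H3K27ac panels hold both.

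The strongest Msx1 site by fold enrichment was 93.5 kb upstream. It reached 20.3 and 23.5-fold over the expected coverage in the 2 wild-type libraries, with 136 and 161 fragments at the summit, and ranked 130 of 16238 consensus summits genome-wide by fold. A second summit close by, 93.9 kb upstream, had 28 and 32 fragments. The Gm20052 site 71.1 kb upstream carried the most fragments of either landscape, 235 and 269 in the 2 libraries, at 17.3 and 17.8-fold. By fragments this site ranked 31 of 16238. Its rank by fold was 418, as coverage around it was raised as well, with an expected level 8.08 times the library background in replicate 1. Another summit in the Gm20052 exon, at 69.3 kb, held 55 and 77 fragments at 4.14 and 5.19-fold.

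Nearer to Msx1, the site 2.35 kb upstream held 116 and 143 fragments at 13.0 and 15.9-fold. It was flanked by weaker summits 1.34 kb upstream, with 30 and 27 fragments, and 4.27 kb upstream, with 26 and 36 fragments. No β-catenin summit lay less than 1 kb from the Msx1 start site in any library. A run of 4 summits between 142.9 and 144.2 kb upstream held 17 to 42 fragments in replicate 1 and 38 to 45 in replicate 2, with consensus folds of 5.24 to 7.16. The next highest folds were at weaker intergenic sites. The summit 33.5 kb upstream held 17 and 26 fragments at 6.84 and 8.20-fold, and the one 43.5 kb downstream held 15 and 18 at 6.23 and 6.76-fold. The 3 strongest sites thus stood apart from the rest of the landscape, whose other 14 consensus summits had folds of 3.19 to 8.10.

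Signal at Msx2 was spread more evenly. Its 5 highest consensus folds lay between 15.2 and 17.4, at 103 kb upstream (48 and 61 fragments), 197 kb upstream (64 and 83), 152 kb downstream (49 and 75), 3.01 kb upstream (65 and 82) and 163 kb downstream (60 and 79). All 5 ranked between 490 and 839 of 16238 by fold. The distal 197 kb site was just inside the 200 kb limit. Msx2 had a β-catenin summit at its start site, 61 bp downstream in the UTR, but a weak one of 22 and 19 fragments at 4.69 and 3.47-fold. The summit 119 kb downstream fell in a coding exon of Sptlc1, which encodes a serine palmitoyltransferase subunit, with 26 and 23 fragments. Median consensus folds were 6.45 for Msx1 and 9.84 for Msx2, against 6.75 over all consensus summits.

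The 2 wild-type libraries placed the same sites close together. The median distance between the summits of both replicates matched to 1 consensus summit was 17 bp at Msx1 (largest 58 bp) and 24.5 bp at Msx2. The largest Msx2 distance, 254 bp, arose where 2 consensus summits 130.6 and 130.8 kb upstream shared 1 summit in replicate 2. Fold in replicate 2 over that in replicate 1 had a median of 1.08 at Msx1 (0.601 to 2.15) and 1.10 at Msx2 (0.740 to 1.69). When overlapping peaks of the replicate lists were merged, 14 of 16 Msx1 sites and 15 of 19 Msx2 sites were listed in both libraries. The sites listed in 1 library were weak, with 9 to 16 fragments.

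**Figure D2:**
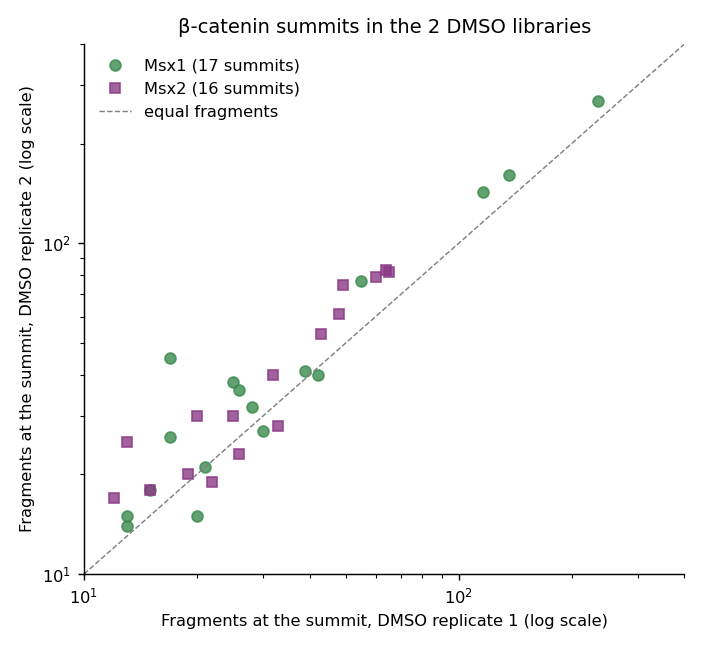
Fragments at each wild-type consensus β-catenin summit in DMSO replicate 1 (horizontal axis) and replicate 2 (vertical axis), both on log scales, for 17 Msx1 summits (circles) and 16 Msx2 summits (squares). The dashed line marks equal fragments, and the 3 strongest Msx1 sites, at 116 to 235 fragments in replicate 1, exceed every Msx2 summit.

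After C59, 0 β-catenin summits were listed within 200 kb of Msx1 and 0 within 200 kb of Msx2, in replicate 1, in replicate 2 and in the consensus list. The groups did not overlap at either gene. The differences in summit number were −18.5 at Msx1 and −17.5 at Msx2 (C59 minus wild-type control), against an SD of 0.707 between wild-type replicates. The exact two-sided permutation test gave p = 0.333 for each, the smallest value that 2 against 2 libraries allow, and 0.444 after Benjamini-Hochberg adjustment over the 8 comparisons made. None of the 17 Msx1 consensus summits lay inside a C59 consensus peak, for which a limit of 3 counts allows a share of up to 17.6% and the Clopper-Pearson interval up to 19.5%. None of the 16 at Msx2 did so, for which these limits are 18.8% and 20.6%. Such limits cover counting error only. This was the general state of the genome, as 98.7% of all 16238 wild-type consensus summits lay outside C59 peaks and 95.1% of the genes with wild-type summits in both libraries had 0 in both C59 libraries.

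The stricter listing limit of the C59 libraries touched few of these sites. Of the 17 Msx1 consensus summits, 16 in replicate 1 and 17 in replicate 2 had a −log10 p above the lowest value listed after C59, as did 16 of 16 at Msx2 in both replicates. A coverage below that limit is not listed, so residual binding after C59 was not measured.

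**Figure D3:**
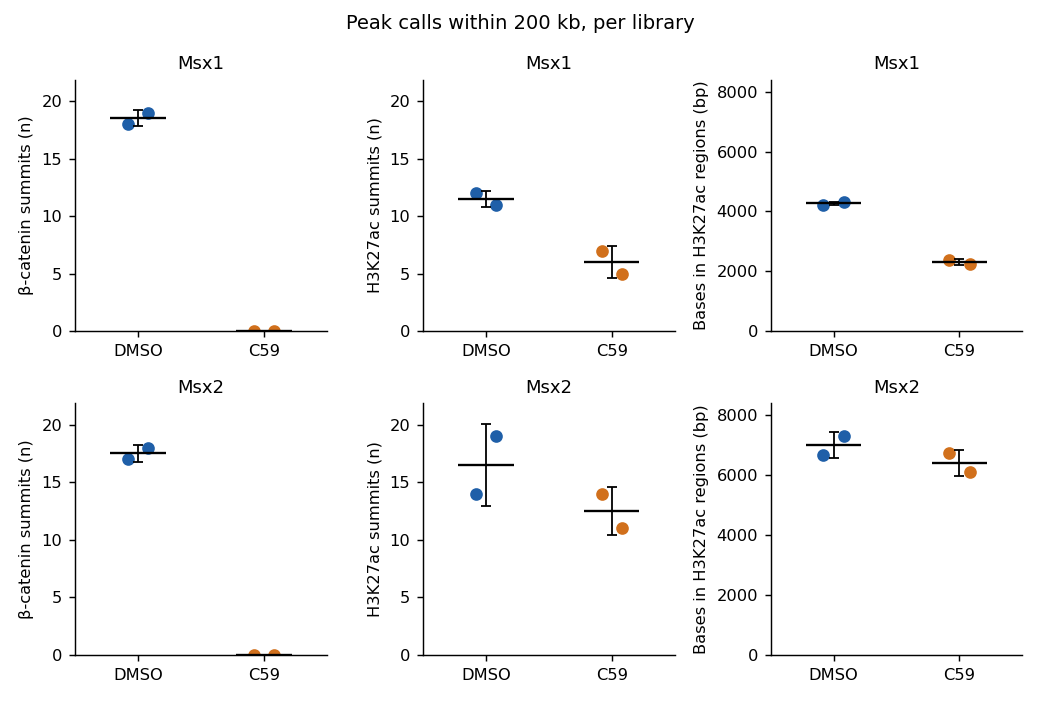
β-catenin summits, H3K27ac summits and bases inside H3K27ac regions within 200 kb of Msx1 (top) and Msx2 (bottom), with 1 point per library, the mean as a line and the SD as bars (n = 2). β-catenin counts are 17 to 19 with DMSO and 0 with C59, the C59 H3K27ac values lie below both wild-type values at Msx1, and they overlap at Msx2.

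H3K27ac calls were fewer around Msx1 after C59 and overlapped between treatments around Msx2. Near Msx1, 12 and 11 H3K27ac summits were listed in DMSO controls and 7 and 5 after C59. Both C59 libraries were below both wild-type libraries, as was the case for 17.6% of genes. The regions covered 4233 and 4315 bp of the Msx1 window in DMSO controls and 2386 and 2232 bp after C59, again without overlap, as at 28.8% of genes. The mean differences were −5.50 summits and −1965 bp, with p = 0.333 each (exact permutation test, n = 2) and 0.444 adjusted. The summit difference at Msx1 was not seen among calls of higher fold: 1 summit a library on average had a fold of at least 5 under either treatment. With −log10 q of at least 5, the means were 6 summits in DMSO controls and 3.5 after C59, covering 2844.5 and 1525 bp. Near Msx2 there were 14 and 19 summits in DMSO controls and 14 and 11 after C59, covering 6691 and 7306 bp against 6730 and 6102 bp. These groups overlapped, and the exact permutation test gave p = 0.667 for both measures (n = 2).

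H3K27ac sites were then followed 1 by 1, with fragments given at the summit of highest fold in each library, which need not be the same base. The 4 replicate lists merged into 9 H3K27ac sites near Msx1, of which 2 were listed in all 4 libraries: the promoter region and a region 144 kb upstream. The region 77.7 kb upstream (chr5:37901744-37902339), which contains the β-catenin summit at 77.4 kb, was listed in both wild-type libraries, with 14 fragments at the summit in each, and in neither C59 library. Genome-wide 3.02% of 34103 merged sites showed that pattern. The reverse was seen 7.18 kb downstream of the Msx1 start site (chr5:37817288-37817538), where both C59 libraries listed a region with 19 fragments each and neither wild-type library did, as at 2.15% of merged sites. That region contains the wild-type β-catenin summit at 7.23 kb. At 69.1 kb upstream, across the start of Gm20052, a region had 19 and 16 fragments in wild-type controls, 14 in C59 replicate 1 and was not listed in C59 replicate 2.

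With 11 to 19 fragments at most of these summits, the calls stood close to the listing limit of 10 or 11 fragments, and a region missing from 1 list is not shown to have lost acetylation. By consensus lists, 2 of 4 wild-type H3K27ac regions near Msx1 overlapped a C59 region (50%, 95% Clopper-Pearson interval 6.76 to 93.2%), and 12.9% of all wild-type regions had no C59 overlap. Conversely, 2 of 3 C59 regions near Msx1 overlapped a wild-type one, and 10.7% of all C59 regions had no such overlap.

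At Msx2, 8 of 12 merged H3K27ac sites were listed in all 4 libraries, as were 51.3% of all 34103 merged sites. Consensus regions were shared for 7 of 8 (87.5%, interval 47.3 to 99.7%) in each direction, close to the 87.1% of all wild-type and 89.3% of all C59 regions. The strongest by fold were at the starts of the neighbouring genes Ror2 and Sptlc1. At Ror2, which encodes a WNT5A receptor, the region had 203 and 210 fragments in DMSO controls and 246 and 184 after C59. In the exon at the start of Sptlc1, fragments were 43 and 35 against 44 and 36. The treatments overlapped at both. The intergenic region 164 kb downstream, which holds a strong β-catenin summit, had 138 and 158 fragments in DMSO controls and 147 and 145 after C59. A region 10.4 kb downstream had 33 fragments in each wild-type library and 61 and 35 after C59, and its folds of 4.16 and 4.60 were below those after C59, 7.27 and 5.25. The region 3.16 kb upstream, which contains the strong β-catenin summit at 3.01 kb, had 20 and 28 fragments in DMSO controls and 43 and 30 after C59. It was absent from the wild-type consensus list although both wild-type libraries listed it. The share of all H3K27ac regions with higher values in both C59 libraries was not counted. The order at 10.4 and 3.16 kb is therefore not shown to be particular to these regions. The region 111 kb upstream was the 1 site of 12 listed in both wild-type libraries (11 and 12 fragments) and in neither C59 library, and no β-catenin consensus summit lay inside it.

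At the Msx1 promoter, fold enrichment and coverage differed in opposite directions between treatments. The H3K27ac region there spans the first part of the gene (chr5:37822923-37824506), with its highest summit in a coding exon 445 bp downstream of the start site. Its highest fold was 3.94 and 5.69 in DMSO controls and 7.13 and 6.40 after C59, so that both C59 values were above both wild-type values, a difference of 1.95. This was the case for 20.9% of 11104 genes with promoter H3K27ac in all 4 libraries. By size, the mean fold after C59 was 1.40 times the wild-type mean, and 0.477% of those genes, Msx1 included, had a ratio as high or higher. The exact permutation test gave p = 0.333 (n = 2). Fragments at the summit of highest fold in each library overlapped, at 60 and 101 in DMSO controls and 80 and 55 after C59. Divided by library background they were 22.3 and 35.0 against 25.2 and 18.5, which overlap.

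The fold is a ratio to the expected coverage, which macs2 without input takes from the fragments around the summit in the same library. Relative to library background, this expected coverage around the Msx1 promoter was 5.38 and 5.87 in DMSO controls and 3.26 and 2.61 after C59. Both C59 libraries were far below both wild-type libraries, and the mean after C59 was 0.522 of the wild-type mean (p = 0.333, exact permutation test, n = 2). Both C59 values were the lower ones at 47.6% of the 11104 genes, but the median ratio over those genes was 0.936, and 0.0811% of them, Msx1 included, had a ratio as low as or lower than that of Msx1. Expected coverage cannot fall below library background, so genes near background in DMSO controls could not reach so low a ratio. The median wild-type level over the 11104 genes was 2.54 times background, against a mean of 5.63 at Msx1. Whichever promoter summit was read, the expected coverage was 5.37 to 5.87 times background in DMSO controls and 2.61 to 3.26 times after C59. The measure was chosen after the fold and the fragments had been seen to differ in direction.

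The region 144 kb upstream of Msx1 gave a second reading far from the promoter. Expected coverage there was 2.19 and 2.01 times background in DMSO controls and 1.32 and 1.42 times after C59, a ratio of 0.652. Over 17498 regions listed in all 4 libraries the median ratio was 0.943, and 0.486% had a ratio as low or lower. Regions near background in DMSO controls could not reach it. Of the regions listed in all 4 libraries, C59 values were lower in both libraries for 2 of 2 near Msx1, 3 of 8 near Msx2 and 45.9% of all. The region holds several summits, and these values were read at the one of highest fold in each library. At the summit shared by all 4 libraries, 143.3 to 143.4 kb upstream, fragments were 29 and 29 in DMSO controls and 23 and 15 after C59. Both wild-type libraries listed a further summit 144.4 kb upstream, with 27 and 36 fragments, and neither C59 library listed one there. The shares of all regions with such an order of fragments, or with such a summit, were not counted.

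At the Msx2 promoter both C59 folds were also above both wild-type folds, as at 20.9% of the 11104 genes. Fold was 5.51 and 5.56 in DMSO controls and 6.63 and 5.81 after C59 (p = 0.333, exact permutation test, n = 2). The highest summit lies 537 bp downstream of the start site in a coding exon. The summit of highest fold in each library held 58 and 63 fragments in DMSO controls and 82 and 64 after C59, which relative to background were 21.6 and 21.8 against 25.8 and 21.5. Expected coverage was 3.61 and 3.64 times background in DMSO controls and 3.63 and 3.43 after C59, a ratio of 0.973. The last 2 measures overlapped between treatments. Whether the Msx1 and Msx2 promoters differ in their response was not tested.

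**Figure D4:**
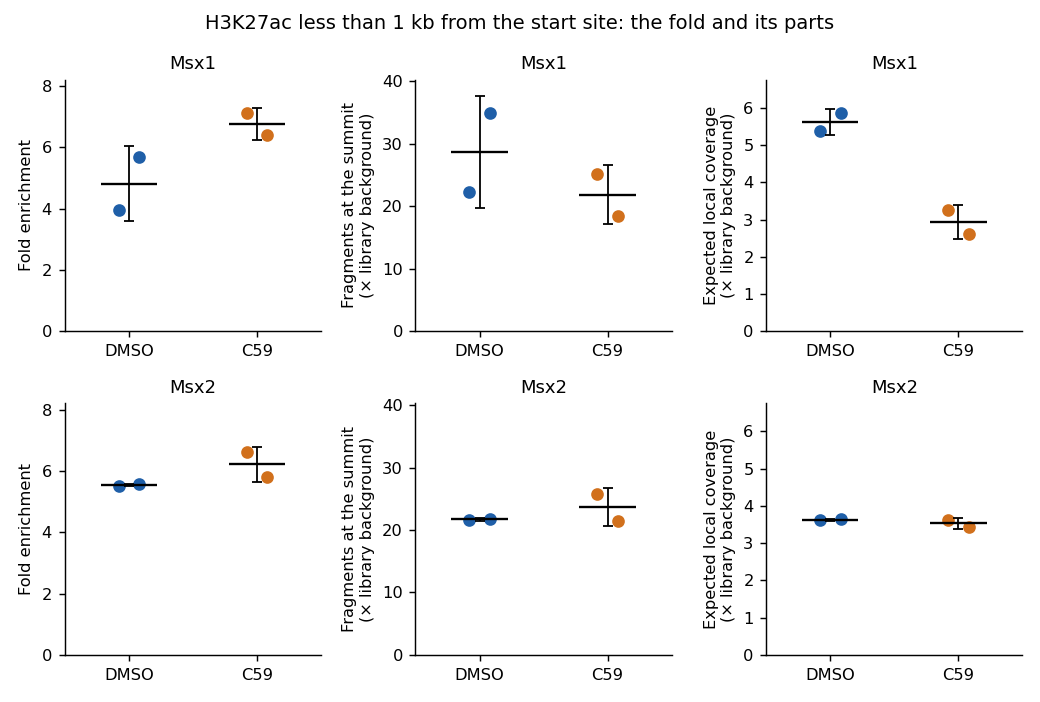
H3K27ac less than 1 kb from the start site of Msx1 (top) and Msx2 (bottom): highest fold enrichment, fragments at that summit over library background, and expected local coverage over library background, with 1 point per library, the mean as a line and the SD as bars (n = 2). At both genes the C59 folds lie above the wild-type ones, while the expected coverage at Msx1 is 5.38 and 5.87 with DMSO and 3.26 and 2.61 with C59.

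β-catenin and H3K27ac coincided at part of the sites. In wild-type controls 6 of the 17 Msx1 summits (35.3%, Clopper-Pearson interval 14.2 to 61.7%) and 3 of the 16 Msx2 summits (18.8%, 4.05 to 45.6%) lay inside an H3K27ac consensus region, against 22.2% of all consensus summits. Of the 6 at Msx1, 4 belong to the cluster 144 kb upstream and share 1 region. Within 100 kb of Msx1, which leaves that cluster out, the share was 2 of 12 (16.7%), and on the replicate lists it was 27.8% in replicate 1 and 21.1% in replicate 2, where 20.4% and 21.5% of all summits lay inside. With the H3K27ac regions extended by 1 kb, the Msx2 share was 37.5%, against 34.2% of all. The order of either gene against all summits thus depended on the list or limit used. The 3 strongest Msx1 β-catenin sites lay outside H3K27ac consensus regions, whereas at Msx2 the sites 152 and 163 kb downstream, among the 5 strongest, lay inside. Single wild-type libraries did list H3K27ac that overlapped the Msx1 β-catenin peaks at 93.5 kb (replicate 1, 13 fragments) and 71.1 kb (replicate 2, 15 fragments). These calls were close to the listing limit and did not reach the β-catenin summits, so absence of acetylation at these sites is not shown.

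A TCF/LEF core was present within 100 bp of 7 of 17 Msx1 summits (41.2%, interval 18.4 to 67.1%) and 6 of 16 Msx2 summits (37.5%, 15.2 to 64.6%), and in 28.6% of the 16193 windows of the same length around consensus summits on chromosomes 1 to 19, X and Y. Both intervals include that share. At Msx2 the share depended on the library, with 4 of 17 summits (23.5%) in replicate 1 and 8 of 18 (44.4%) in replicate 2, against 26.0% and 25.2% of all windows in those lists. At Msx1 the median fold was 5.28 with a core and 6.87 without, and at Msx2 13.5 with and 8.68 without, with overlapping ranges at both. The other words, searched on both strands in the same windows, were GGCGCC, which BMP-activated SMADs bind, TAATTA, a homeodomain word, and CAGCTG, an E-box. GGCGCC was found at 3 Msx1 summits and 1 Msx2 summit and in 4.03% of all windows. At Msx1 it lay at the 2.35 kb and 7.23 kb sites and in the 144 kb cluster, and at Msx2 in the 3.01 kb window, which holds it at 2 positions. TAATTA occurred at 3 and 2 summits (14.8% of all windows) and CAGCTG at 2 and 3 (18.9%). Matches of this kind describe the letters and not binding.

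Other genes of the BMP pathway were examined in the same way, using a list of 24 genes. All 24 had β-catenin summits within 200 kb in both wild-type libraries, as did 79.8% of all protein-coding genes, with a median of 6 summits. Of these, 22 had 0 in both C59 libraries, near the general share of 95.1%. The exceptions were Smad5, which encodes a BMP signal transducer, and the BMP antagonist gene Grem1, each with 1 summit in 1 C59 library. Only Bmpr1b, a type I BMP receptor gene, had more wild-type summits than Msx1 and Msx2, with 19 and 26. The ligand genes Bmp4 (9 and 15) and Bmp7 (11 and 14) were below both, as were the direct target genes Id1 (8 and 8), Id2 (3 and 4), Id3 (6 and 10) and Id4 (3 and 4). The related homeobox gene Msx3 had 1 in each library. Part of this order can reflect window length, which grows with the gene body and was not taken into account. A β-catenin consensus summit less than 1 kb from a start site was found for 7 of the 24 genes in DMSO controls and for 0 after C59, against 9.04% and 0.0775% of all protein-coding genes.

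H3K27ac summits near the 24 genes were fewer in both C59 libraries than in both wild-type libraries for 6 of them, more for 1 (Bmpr2) and neither for 17. Over all genes with H3K27ac summits the shares were 17.6% for fewer and 5.71% for more, so that the list lay near the general level. The 6 were Bmp2 (4 and 7 against 1 and 2), Grem1 (8 and 14 against 4 and 4), Nog (5 and 9 against 3 and 1), which encodes the antagonist noggin, Id2 (18 and 17 against 12 and 12), and the neighbouring Dlx5 and Dlx6 (4 and 5 against 2 and 2 for each), whose windows share summits. For the 16 genes with promoter H3K27ac in all 4 libraries, expected coverage after C59 was a median 0.961 of the wild-type level. The range was 0.670 at Bmp4 to 1.19 at Bmpr1b, with Bmp7 at 0.690, so that none of these 16 was as low as Msx1. The floor at library background applies to these ratios as well. Genes without the call in every library have no such ratio. Promoter H3K27ac was listed in 2 DMSO and 1 C59 libraries for Bmp2, Grem1, Nog and Id2, and in 2 and 0 for Dlx5. For Smad9 it was listed in 1 and 0, and for Dlx6 and Msx3 in 0 of either. A lower level than at Msx1 was thus not measurable at these genes.

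**Figure D5:**
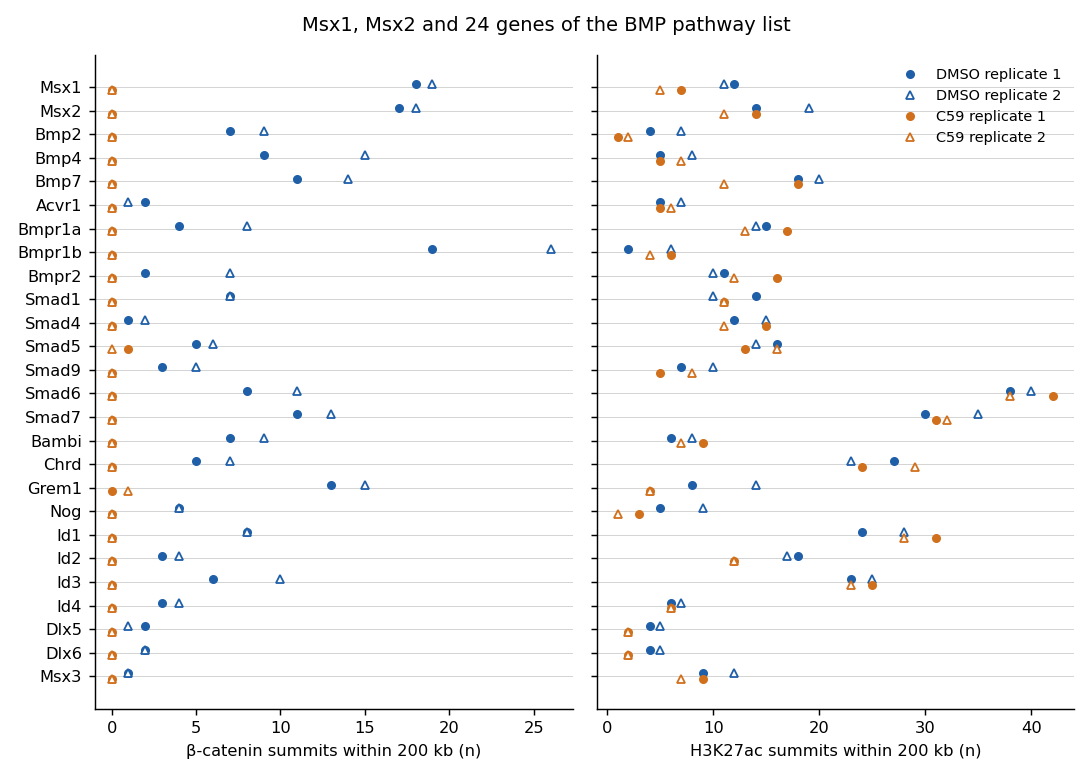
Number of β-catenin (left) and H3K27ac (right) summits within 200 kb of Msx1, Msx2 and the 24 genes of the BMP pathway list in each of the 8 replicate libraries. DMSO (wild-type control) is blue and C59 orange, with filled circles for replicate 1 and open triangles for replicate 2; Msx1 and Msx2 are second to Bmpr1b in wild-type β-catenin summits, and their C59 β-catenin counts are 0.

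The genes whose summit numbers were most like those of Msx1 over the 8 libraries, by Euclidean distance and leaving out overlapping windows, were Fzd10 (5.66), then Cacna2d3, Ccbe1 and Fzd1 (each 5.74). Fzd10 and Fzd1 encode WNT receptors of the Frizzled family. For Msx2 they were Emsy (2.45), Thap12 (2.65) and Foxn3 (4.24), of which Emsy and Thap12 are neighbours on chromosome 7 and share part of their windows.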

How the data were processed

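β-catenin and H3K27ac ChIP-seq of forelimb buds gave 8 replicate and 4 consensus peak lists. The 4 input samples were not used here. The authors trimmed reads with Cutadapt (version 4.1 in the submitters' processing notes), mapped them to mm10 with Bowtie2 2.4.5, discarded alignments of mapping quality under 30 and ran macs2 2.2.7.1, paired-end, without input and with a genome size of 1870000000. For consensus lists the authors removed duplicates (Picard 2.27.4), sampled replicates to equal size, called peaks jointly and kept summits present in both replicates. Each deposited row gives a fold enrichment, which is a ratio over the expected coverage, with p-value and q-value as −log10. Consensus values are the authors' pooled values and carry no error.

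Rows were read on GRCm38 with GENCODE M21 (0 peaks passed a chromosome end). Whole fragments n and expected coverage λ were solved from fold = (n + 1)/(λ + 1) and the Poisson p, and 100% of rows fitted in every list (relative tolerance 1e-04). In simulated data 100% of 20000 peaks were recovered. macs2 takes λ as the larger of the genome background and the mean coverage over 10 kb around the summit, by its defaults. Groups came from the labels. A region counted as shared at an overlap of 1 bp. Libraries were compared by exact two-sided permutation tests (2 against 2) and shares carry exact Clopper-Pearson intervals at 95%. Replicates are separate pools, so p-values measure only the spread between these pools. The genes, the pathway and marker lists and the tests were chosen with earlier results of these data known. Named summits were the 5 highest folds of a locus and those at a start site, H3K27ac regions at the promoter, the strongest others and those listed in both replicates of 1 treatment alone; other named sites were chosen after their values were seen. Alternatives were other windows, thresholds, units, measures and lists, and each replicate left out; the lowest C59 p as a limit and the expected coverage were added after the data were seen. Blacklisted summits were not filtered. Scripts ran under scipy 1.17.1, pandas 2.3.3, numpy 2.4.6, matplotlib 3.10.9 and Python 3.11.15.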

Additional observations from a re-analysis of the deposited data

How the results depend on the processing

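The number of β-catenin summits after C59 was lower under all alternatives tried at both genes, including the listing limit of the C59 libraries (−17.5 at Msx1 and −16.5 at Msx2). With 0 C59 summits listed within 200 kb, alternatives inside that window could not give a higher number and test nothing. The 500 kb window could have, and gave −24 at Msx1 and −37.5 at Msx2. The Msx1 promoter difference in H3K27ac turned from a higher fold to −6.81 for fragments at the summit and to −2.69 for expected coverage, both over library background, because the fold divides the first by the second. At Msx2 it turned to −0.0995 for expected coverage. With a fold of at least 5, the H3K27ac summit difference became 0 at Msx1 and 1.5 at Msx2, and within 500 kb of Msx2 it was 2.5 summits and 1106 bp; the cause was not tested. At a −log10 q of at least 5 the H3K27ac summit difference was −2.5 at Msx1 and −2 at Msx2. Within 100 kb of Msx2, 100% of 4 wild-type H3K27ac regions were shared. The shares with a TCF/LEF core were 23.5% and 25% (21.2% of all) in a 100 bp window and 23.5% and 18.8% (15.1% of all) for ATCAAAG alone.

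Leaving out each library in turn gave differences of −19 to −18 (Msx1) and −18 to −17 (Msx2) β-catenin summits, −6.50 to −4.50 and −6.50 to −1.50 H3K27ac summits, −2042 to −1888 and −896.5 to −268.5 bp, and 1.08 to 2.82 and 0.274 to 1.09 in promoter fold. The H3K27ac summit difference at Msx2 was smallest without wild-type replicate 2. In H3K27ac fold, replicate numbers showed no pairing (correlation of replicate deviations between treatments 0.0105 over 17498 regions). β-catenin was not checked, and the labels do not say whether replicates were collected or processed in pairs. With the replicate block the paired differences were the same, −18.5 and −17.5 β-catenin summits, −5.50 and −4 H3K27ac summits, −1965 and −582.5 bp and 1.95 and 0.684 in fold, and the exact paired test cannot go below p = 0.5. Of 128 alternatives over 16 results, 120 kept the direction or stayed within the interval. Part of these could not differ: the paired differences repeat the main values, and β-catenin had no C59 summits within 200 kb to count. With 2 libraries a group no comparison could pass 0.05, so none of this shows stability.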
